A study of Homo sapiens with 10 samples.

Results

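Matrix metalloproteinases (MMPs) are zinc-dependent enzymes that cut the proteins of the extracellular matrix, and tissue inhibitors of metalloproteinases (TIMPs) bind their active sites. This report describes 9 genes of this system, chosen by symbol, of which 6 encode MMPs (MMP1, MMP2, MMP9, MMP10, MMP14 and MMP15) and 3 encode inhibitors (TIMP1, TIMP2 and TIMP3). All 9 were found among the 26256 genes of one count table and the 55736 genes of another.

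The first table holds poly(A) RNA-seq of MCF10A, an immortalized, nontransformed human breast epithelial line, and of G12V cells, which are MCF10A cells given the HRas oncogene by lentivirus together with a GFP vector and selected in hygromycin (n = 2 each, no treatment). The second holds parental MCF10A cells kept for 4 h in 10 µM Nutlin-3a, a drug that blocks MDM2 and so stabilizes p53, or in its vehicle DMSO (n = 3 each). All cells grew in medium with EGF, insulin, hydrocortisone, cholera toxin and horse serum, and for no more than 5 passages. The paper states that G12V cells at first stopped growing and grew again after a few weeks. The parental cells of the first table are not described as having received an empty vector or the same time in culture. Transduction, selection and the outgrowth after arrest therefore cannot be told apart from the oncogene.

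MMPs are made as inactive precursors. MMP14 and MMP15 sit in the cell membrane. MMP14 forms a complex at the cell surface with TIMP2, which captures the precursor of the gelatinase MMP2 so that another MMP14 molecule can activate it, while TIMP2 in excess blocks the enzyme. MMP9 is the other gelatinase, MMP1 is a collagenase and MMP10 a stromelysin. TIMP1 and TIMP2 are secreted and soluble, whereas TIMP3 stays bound to the matrix and also inhibits several ADAM and ADAMTS proteases. In breast tissue the balance of these enzymes and inhibitors governs how epithelium and its basement membrane are remodelled.

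The bases upstream of the members' genes differ widely. RefSeq promoters on GRCh38.p14, with 250 bases before the gene start, were matched for 5 of the 9 members (MMP10, MMP14, MMP15, TIMP1 and TIMP3) and not for MMP1, MMP2, MMP9 and TIMP2. Below are shown the sequences of the pair of members that were called lower in G12V cells (TIMP3 and MMP14), of the member that was called higher (MMP15) and, for contrast, of a member with almost no reads (MMP10). They lie at chr22:32801455-32801704 on the plus strand for TIMP3, chr14:22836335-22836584 on the plus strand for MMP14, chr16:58025504-58025753 on the plus strand for MMP15 and chr11:102780629-102780878 on the minus strand for MMP10. Each is written 5′ to 3′ towards the gene start, and capitals mark matches, on either strand, to the GC box GGGCGG (its reverse complement is CCGCCC), the AP-1 motif TGANTCA, the TATA box TATAAA and the CCAAT box.
TIMP3: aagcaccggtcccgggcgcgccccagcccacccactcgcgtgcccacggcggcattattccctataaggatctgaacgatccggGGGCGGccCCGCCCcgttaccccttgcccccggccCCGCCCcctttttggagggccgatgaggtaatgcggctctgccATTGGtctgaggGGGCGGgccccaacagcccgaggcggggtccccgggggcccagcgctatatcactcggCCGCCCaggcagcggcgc
MMP14: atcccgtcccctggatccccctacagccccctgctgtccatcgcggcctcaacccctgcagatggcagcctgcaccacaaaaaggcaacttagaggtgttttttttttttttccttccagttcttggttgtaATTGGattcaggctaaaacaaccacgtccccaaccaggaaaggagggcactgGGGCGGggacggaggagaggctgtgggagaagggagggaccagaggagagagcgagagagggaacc
MMP15: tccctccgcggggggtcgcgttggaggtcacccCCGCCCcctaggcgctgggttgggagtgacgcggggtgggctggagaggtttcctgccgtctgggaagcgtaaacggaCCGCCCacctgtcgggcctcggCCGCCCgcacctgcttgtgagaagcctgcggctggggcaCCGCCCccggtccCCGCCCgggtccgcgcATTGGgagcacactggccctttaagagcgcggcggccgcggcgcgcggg
MMP10: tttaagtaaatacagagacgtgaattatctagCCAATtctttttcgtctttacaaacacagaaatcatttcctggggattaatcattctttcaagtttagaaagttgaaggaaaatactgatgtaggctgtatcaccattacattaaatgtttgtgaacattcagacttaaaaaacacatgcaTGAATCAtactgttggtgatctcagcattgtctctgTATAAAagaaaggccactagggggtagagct

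TIMP3 and MMP15 had GC-rich promoters with 72.4% and 74.8% G and C, 26 and 31 CpG dinucleotides and 5 GC boxes each. Of all 35116 promoters of that length, 80.4% had fewer CpG dinucleotides than TIMP3 and 89.1% fewer than MMP15, and the median was 11. The MMP14 promoter had 56.8% G and C, 7 CpG dinucleotides and 1 GC box, and that of TIMP1, not shown, had 64.8%, 12 and 2. The MMP10 promoter was the AT-rich exception among these 5, with 34.4% G and C, 2 CpG dinucleotides and no GC box. It alone held a match to the TATA box letters, 31 bases before the start, and to the AP-1 letters TGANTCA, as TGAATCA, 67 bases before it. Near matches were not counted. A GC box was found in 42.6% of all promoters, the AP-1 motif in 6.57%, the TATA box in 10.7% and the CCAAT box in 32% of them, and no matches overlapped in these 5 promoters. These matches describe the letters only.

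Gene levels are given as CPM, the reads of a gene scaled to a common library size after adjustment by edgeR's TMM factors. Libraries of the first table held 21538593 to 23683975 counts, where 3 reads are worth 0.128 to 0.136 CPM, and those of the second 15453226 to 17378734, where 3 reads are worth 0.166 to 0.197 CPM. Calls of higher or lower needed an adjusted p below 0.05 in edgeR's quasi-likelihood test across all genes and a log2 fold change beyond 0.5 in either direction. The labels were checked on HRAS, which rose by 3.05 on the log2 scale in G12V cells (SE 0.23, edgeR adjusted p = 0.00165), with reads of the introduced and the endogenous gene counted together. The p53 targets CDKN1A and MDM2 rose by 2.16 (SE 0.13) and 2.54 (SE 0.18) under Nutlin-3a (edgeR adjusted p = 5.16e-04 and 0.00133).

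Oncogenic HRas went with opposite moves among these genes. TIMP3 was nearly lost and MMP14 fell 3.53-fold, while MMP15 rose. TIMP2 and MMP2 had log2 fold changes above 1 that missed the threshold. Of the 9 members, 6 had enough reads to be tested in the first table, and 1 was called higher and 2 lower, where 5.01% of all 14376 genes tested were called higher and 5.95% lower. The groups did not overlap for any of these 6 members, which was also so for 54.8% of all genes tested. Their median absolute log2 fold change was 1.30, beside 0.36 over all genes. These are bulk samples, in which fewer cells of a type and less RNA per cell cannot be told apart.

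**Figure D1:**
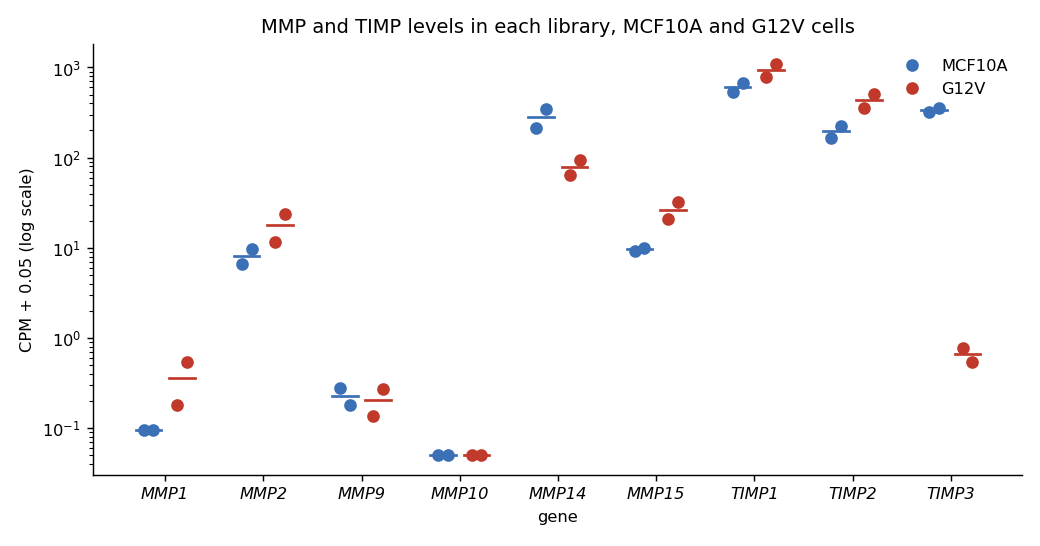
CPM + 0.05 on a log scale for the 9 genes in the 2 MCF10A (blue) and the 2 G12V libraries (red); points are libraries and bars are group means. TIMP3 drops from 317 and 354 CPM to 0.727 and 0.491, while MMP10 has no read in any of the 4 libraries and MMP1 and MMP9 have at most 11 reads.

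TIMP3, the matrix-bound inhibitor (chromosome 22, 33196802 to 33259028 in hg19, plus strand, 5 exons), had 6980 and 8047 reads in the MCF10A libraries and 17 and 11 in the G12V libraries. Scaled to depth these were 317 and 354 CPM against 0.727 and 0.491 CPM, so that no G12V library came near a parental one. The means were 336 ± 26.3 CPM and 0.609 ± 0.167 CPM (SD, n = 2 each), a log2 fold change of -9.09 (SE 0.31, 95% interval -9.84 to -8.34, edgeR adjusted p = 3.37e-04), or 545-fold lower. The remaining reads were above the 3 counts used as a floor, so the transcript was still seen.

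TIMP3 lies inside 1 intron of SYN3, a synapsin gene on the opposite strand, and no SYN3 exon falls within it. SYN3 moved in the same direction, from 43 and 114 reads in MCF10A to 0 in both G12V libraries. That is at least 26.6-fold lower against 3 counts in each G12V library, and SYN3 was called lower (edgeR adjusted p = 0.0135). The strand setting of the counting is not given in the sources used here, so reads of the pair cannot be told apart with certainty. The SYN3 reads in MCF10A were a small fraction of the TIMP3 reads in the same libraries.

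MMP14, the membrane-bound activator of MMP2 (chromosome 14, 23305742 to 23316808 in hg19, plus strand, 10 exons), was the most abundant MMP of the set. It had 216 and 342 CPM in MCF10A and 63.6 and 94.3 CPM in G12V cells. Both G12V libraries were below both parental ones, although the parental ones differed from each other by more than the G12V ones did. The means were 279 ± 89.6 and 79.0 ± 21.7 CPM (SD, n = 2 each), a log2 fold change of -1.82 (SE 0.31, 95% interval -2.59 to -1.05, edgeR adjusted p = 0.0190), or 3.53-fold lower.

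MMP15, the other membrane-type enzyme (chromosome 16, 58059282 to 58080804 in hg19, plus strand, 10 exons), went the other way from a low level. MCF10A libraries had 9.04 and 10.0 CPM and G12V libraries 20.6 and 31.8 CPM, without overlap. The means of 9.52 ± 0.674 and 26.2 ± 7.95 CPM (SD, n = 2 each) gave a log2 fold change of 1.46 (SE 0.29, 95% interval 0.75 to 2.17, edgeR adjusted p = 0.0295). The call did not hold without G12V replicate 2, where the log2 fold change was 1.11 and the adjusted p 0.0611.

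Of the gelatinases, MMP2 (chromosome 16, 55512742 to 55540603 in hg19, plus strand, 13 exons) had 6.64 and 9.60 CPM in MCF10A and 11.5 and 23.8 CPM in G12V cells. G12V replicate 2 stood well above the others, and replicate 1 was closer to the parental range. The log2 fold change of 1.12 (SE 0.42, 95% interval 0.11 to 2.14) did not pass (edgeR adjusted p = 0.158). It was 1.55 with an adjusted p of 0.0112 without G12V replicate 1 and 0.51 with 0.552 without G12V replicate 2. MMP9 (chromosome 20, 44637547 to 44645200 in hg19, plus strand, 13 exons) had 5 and 3 reads in MCF10A and 2 and 5 in G12V cells and was too low to test.

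MMP1 and MMP10 lie in a cluster of 9 MMP genes (MMP7, MMP20, MMP27, MMP8, MMP10, MMP1, MMP3, MMP12 and MMP13) on chromosome 11 from 102391239 to 102826463 in hg19, a span of 435 kb. The whole cluster was close to silent. Its 9 genes together had 7 and 19 reads in the MCF10A libraries and 3 and 15 in the G12V libraries, and none of the 9 passed the filter on low counts. MMP1 had 1 read in each MCF10A library and 3 and 11 reads in the G12V libraries, and MMP10 had no read in any of the 4. MMP7 had 5 and 12 reads in MCF10A and 0 in both G12V libraries. A count of 0 allows up to 3 reads, or 0.128 to 0.136 CPM in these libraries, and differences in MMP1 and MMP10 were not detectable at this depth. MMP1 is on the minus strand from 102660641 to 102668966 and MMP10 on the same strand from 102641233 to 102651359, each with 10 exons.

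The soluble inhibitors were both higher in every G12V library than in any parental one, without passing the test. TIMP2 (chromosome 17, 76849059 to 76921472 in hg19, minus strand, 5 exons) had 165 and 226 CPM in MCF10A and 351 and 514 CPM in G12V cells, with means of 196 ± 43.5 and 433 ± 115 CPM (SD, n = 2 each). Its log2 fold change of 1.15 (SE 0.28, 95% interval 0.46 to 1.83) had an edgeR adjusted p of 0.0551, just outside the threshold. It passed under DESeq2 (adjusted p = 0.00315), edgeR's exact test (adjusted p = 0.00336), library totals as the only scaling (adjusted p = 0.0310) and a stricter filter on low counts (adjusted p = 0.0445). In edgeR's quasi-likelihood test it did not pass with RLE factors in place of TMM (adjusted p = 0.0587) or with no filter on low counts (0.0656). Without single libraries its log2 fold change ran from 0.84 to 1.39.

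TIMP1 (chromosome X, 47441690 to 47446190 in hg19, plus strand, 6 exons) had 531 and 673 CPM in MCF10A and 786 and 1105 CPM in G12V cells. The log2 fold change was 0.65 (SE 0.28, 95% interval -0.03 to 1.33, edgeR adjusted p = 0.214). TIMP1 also lies in 1 intron of a synapsin gene on the opposite strand, SYN1, which had 10 to 40 reads in these libraries and was not called (edgeR adjusted p = 0.820). The other genes that overlap a member in the coordinates, WTAPP1 with MMP1 and CEP295NL with TIMP2, had 0 to 6 reads per library.

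These calls rest on 2 libraries a group. Without MCF10A replicate 1 no gene in the table was called, members included, although 2830 genes had an unadjusted p under 0.05. TIMP3 then had a log2 fold change of -9.14 (adjusted p = 0.0502), MMP14 of -2.10 (0.101) and MMP15 of 1.41 (0.214) in edgeR. The calls of TIMP3 and MMP14 held without each of the other 3 libraries in turn.

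The cells also differed in markers of cell identity. Of 6 mammary epithelial markers, CDH1 (E-cadherin), KRT14, KRT5 and EPCAM were called lower in G12V cells and KRT8 and KRT18 were not called. The summed level of the 6 was 4902 to 5905 CPM in MCF10A and 1361 to 1661 CPM in G12V cells. It was set mainly by KRT5, with means of 4195 and 1078 CPM. CDH1 had 10 to 12 reads left and KRT14 had 2 to 3, while the keratins KRT5, KRT8 and KRT18 remained at 1078, 222 and 204 CPM on average. Of 6 fibroblast or mesenchymal markers 4 were tested and LUM was called higher, with 27 to 28 reads, and their sum was 37.5 to 64.9 CPM against 53.4 to 60.1 CPM. COL1A2 had 0 to 1 reads in every library, and of the leukocyte markers CD68 was called higher while PTPRC (CD45) had 0 to 1. CD68 had 271 to 275 reads in the MCF10A libraries of this table but 0 to 2 in those of the other, counted on another annotation, so its count and the leukocyte sum are uncertain. The 3 leukocyte markers summed to 30.4 to 49.1 CPM in MCF10A and 59.0 to 112 CPM in G12V cells, and the 3 endothelial ones to 1.68 to 3.17 and 3.21 to 3.68 CPM. The part of these marker changes in the changes of the members was not tested.

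**Figure D2:**
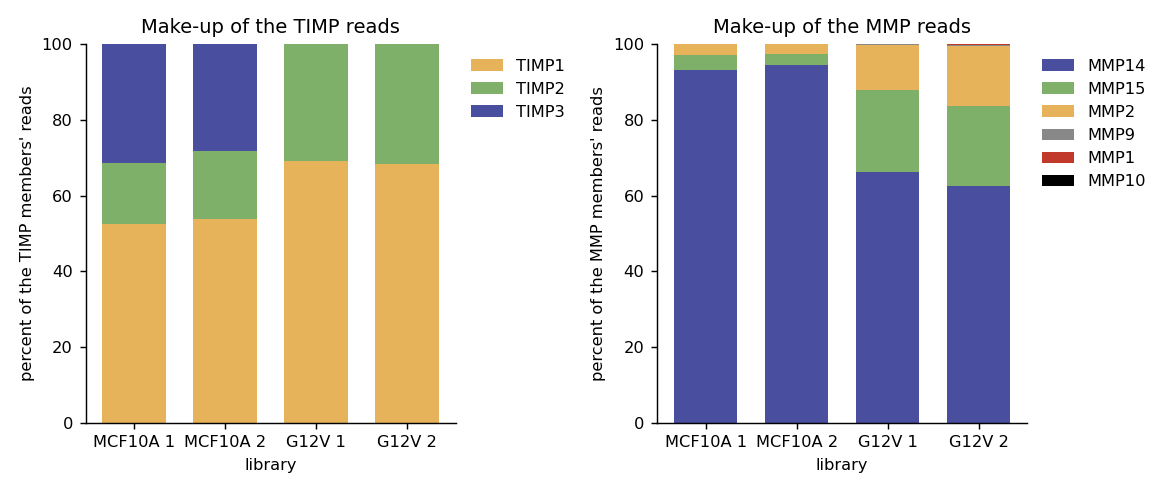
Stacked bars of the percentage of TIMP reads (left) and of MMP reads (right) that each member contributed in the 2 MCF10A and the 2 G12V libraries, each bar summing to 100. TIMP3 is visible only in the MCF10A bars, and MMP14 gives way in part to MMP15 and MMP2 in the G12V bars.

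The makeup of the reads of both families therefore differed between the cells. Shares of reads are not weighted by exon length, which is 4.597 kb for TIMP3 and 0.769 kb for TIMP1. Per kilobase of exon TIMP3 had 73.1 CPM in MCF10A cells, beside 783 CPM for TIMP1. TIMP3 gave 31.3% and 28.3% of the reads of the 3 inhibitors in the MCF10A libraries and 0.0639% and 0.0303% in the G12V libraries. TIMP1 went from a mean share of 53.1% to 68.7% and TIMP2 from 17.2% to 31.3%. The summed level of the 3 inhibitors was 1134 ± 170 CPM in MCF10A and 1379 ± 341 CPM in G12V cells (SD, n = 2 each), a difference smaller than the SD of the G12V libraries. That sum is not weighted by exon length either. Per kilobase of exon TIMP1 had 783 ± 131 CPM in MCF10A and 1230 ± 294 CPM in G12V cells (SD, n = 2 each), without overlap. TIMP2 went from 53.5 to 118 CPM per kilobase and TIMP3 from 73.1 to 0.132. Among the 6 enzymes MMP14 held 93.8 ± 1.01% of the reads in MCF10A and 64.4 ± 2.62% in G12V cells (SD, n = 2 each). MMP15 went from 3.33% to 21.3% and MMP2 from 2.76% to 13.9%. The enzymes summed to 232 and 362 CPM in MCF10A and to 96.0 and 151 CPM in G12V cells, without overlap.

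Ratios within a library do not depend on the scaling between libraries. The MCF10A libraries had 0.229 and 0.289 reads of the 6 enzymes per read of the 3 inhibitors, and the G12V libraries had 0.0844 and 0.0930, a log2 difference of -1.54. Per TIMP2 read there were 1.31 and 1.51 MMP14 reads in MCF10A against 0.181 and 0.183 in G12V cells, a log2 difference of -2.95, or 7.72-fold lower. Replicates lay close together in both ratios and the groups did not overlap. An exact permutation test of 2 against 2 libraries (two-sided) gave p = 0.33 for each ratio, which is the smallest p it can give.

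Levels can be compared between genes only per length of transcript, here as CPM per kilobase of exon. In MCF10A cells TIMP1 led with 783 CPM per kilobase, followed by MMP14 at 75.4 and TIMP3 at 73.1, whose libraries overlapped, and by TIMP2 at 53.5. MMP15 and MMP2 followed at 2.34 and 2.31 with overlapping libraries, and MMP9, MMP1 and MMP10 were below 0.1. In G12V cells TIMP1 led with 1230 CPM per kilobase, TIMP2 was second with 118 and MMP14 came next with 21.3. MMP15 at 6.46 and MMP2 at 5.03 overlapped, and TIMP3 at 0.132 overlapped with MMP1 at 0.157, near the lower end of the list. TIMP3 thus stood among the 3 highest of the 9 in the parental cells and among the 4 lowest in G12V cells.

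**Figure D3:**
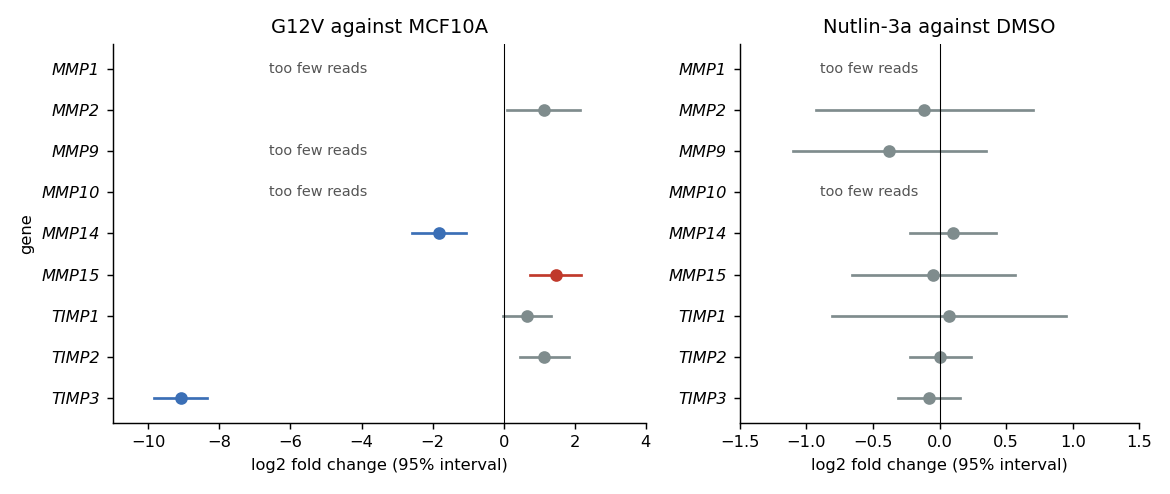
Log2 fold change with its 95% interval for each member, G12V against MCF10A on the left and Nutlin-3a against DMSO on the right, on axes of different range; red and blue mark members called higher and lower, grey those not called. On the left TIMP3 lies at -9.09, MMP14 at -1.82 and MMP15 at 1.46, and on the right, in the fit without the replicate block, every interval includes 0.

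The same comparison was read in 52 further genes of the pathway, in 4 lists. In all, 33 were tested, and 6 were called higher and 4 lower in G12V cells, beside 5.01% and 5.95% of all genes tested. Of 18 other MMPs 7 were tested. MMP16, another membrane-type enzyme, rose from 0.584 ± 0.203 to 10.1 ± 0.191 CPM (SD, n = 2 each), a log2 fold change of 4.11 (SE 0.40, edgeR adjusted p = 0.00375). MMP28 (epilysin), which is made by resting epithelia such as keratinocytes, fell from 31.0 ± 7.44 to 2.21 ± 1.67 CPM (log2 fold change -3.81, SE 0.57, edgeR adjusted p = 0.0120). The 5 others tested (MMP11, MMP17, MMP19, MMP24 and MMP25) were not called by the quasi-likelihood test. MMP17 was called higher by DESeq2 (adjusted p = 0.0122) and by edgeR's exact test (adjusted p = 0.0134). The exact test also called MMP19 higher (adjusted p = 0.0449). The median log2 fold change of the 7 was 1.02, beside -0.0011 over all genes.

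Among 4 other inhibitors 2 were tested. TFPI2, a secreted inhibitor of serine proteases such as plasmin, had 78 and 39 reads in MCF10A and 0 in both G12V libraries. It was called lower (edgeR adjusted p = 0.0114), at least 20.1-fold against 3 counts in each G12V library. RECK, a membrane-anchored inhibitor, had 3.63 ± 1.09 and 8.71 ± 1.74 CPM (SD, n = 2 each) and did not pass (log2 fold change 1.26, SE 0.36, edgeR adjusted p = 0.0837). It was called higher by DESeq2 (adjusted p = 0.0265) and by edgeR's exact test (adjusted p = 0.0218). TIMP4 had 0 to 1 reads per library.

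The urokinase system, which activates plasmin and through it several MMP precursors, split. Of 12 activators and surface partners 10 were tested, of which 2 passed as higher and 1 as lower, with a median log2 fold change of -0.26. PLAU, the gene of urokinase itself, fell from 87.7 ± 10.8 to 32.8 ± 10.6 CPM (SD, n = 2 each; log2 fold change -1.42, SE 0.27, edgeR adjusted p = 0.0256). PLAUR, its receptor, rose from 12.8 ± 5.76 to 35.6 ± 1.96 CPM (log2 fold change 1.47, SE 0.34, edgeR adjusted p = 0.0481), a call that was lost with library totals as the only scaling (adjusted p = 0.0510) and with no filter on low counts (0.0558). PCSK5, a proprotein convertase, rose from 0.472 ± 0.232 to 2.79 ± 0.0400 CPM (log2 fold change 2.55, SE 0.47, edgeR adjusted p = 0.0236). FURIN, the convertase that processes the MMP14 precursor, was not called, with a log2 fold change of -0.52 and an edgeR adjusted p of 0.203. Without MCF10A replicate 2 neither PLAUR (adjusted p = 0.105) nor PCSK5 (0.0982) was called.

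Of 18 related metalloproteinases 14 were tested, of which 3 passed as higher and 1 as lower, with a median log2 fold change of 0.29. TIMPs are not known to inhibit all of the 18. ADAM12, a membrane protease, rose from 14.2 ± 2.02 to 121 ± 21.9 CPM (SD, n = 2 each; log2 fold change 3.10, SE 0.23, edgeR adjusted p = 0.00168). ADAMTS9 and ADAMTS12, secreted proteases that cut proteoglycans and other matrix proteins, rose by 4.04 (SE 0.47) and 2.81 (SE 0.52) on the log2 scale (edgeR adjusted p = 0.00606 and 0.0232), to 14.4 ± 5.62 and 7.28 ± 2.19 CPM. ADAM8 fell from 27.8 ± 3.02 to 3.0 ± 1.02 CPM (log2 fold change -3.21, SE 0.33, edgeR adjusted p = 0.00430). ADAM17, which sheds growth factor precursors and which TIMP3 inhibits, was not called, with 49.3 ± 3.27 and 58.1 ± 8.59 CPM and a log2 fold change of 0.24 (SE 0.20). The 10 calls of the 4 lists were all lost without MCF10A replicate 1, as was every other call in the table.

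**Figure D4:**
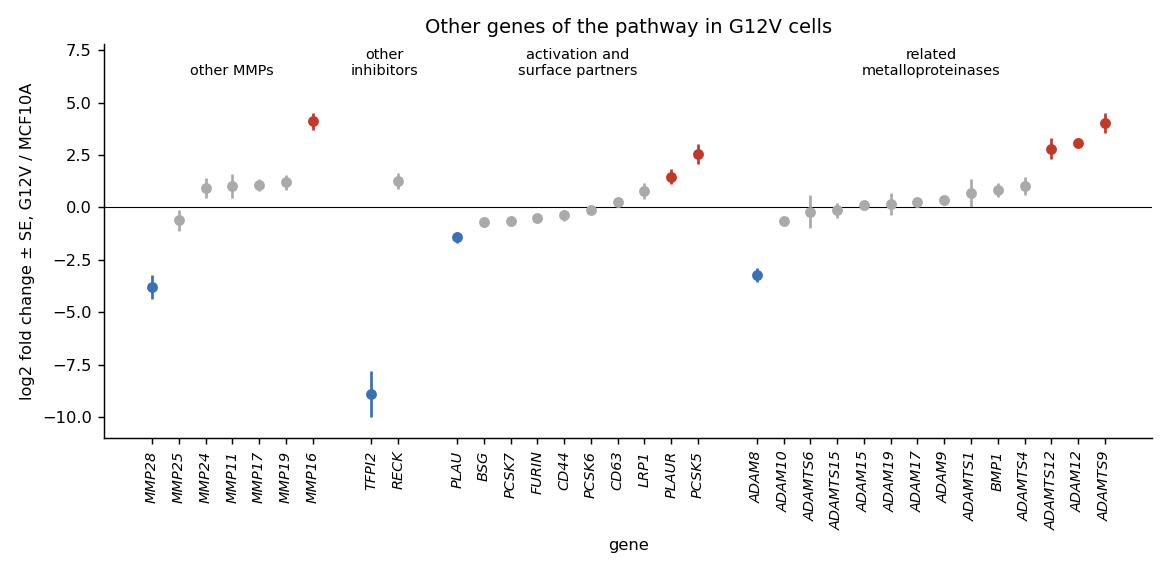
Log2 fold change ± SE, G12V over MCF10A, of the 33 tested pathway genes in 4 lists; red marks the 6 called higher, blue the 4 called lower and grey those not called. The fitted value of TFPI2 has no reads in G12V cells behind it and is not a measured fold.

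Nutlin-3a did not move any of these genes detectably in 4 h. Of the 9 members 7 were tested in the second table and none was called by edgeR, DESeq2 or the exact test, where 0.170% of all 13529 genes were called in either direction. The libraries pair by replicate number, and with that number as a block 1.22% of genes were called and still none of the 7 members (edgeR adjusted p = 0.44 or higher). MMP9 had the smallest unadjusted p in both fits, 0.265 without the block and 0.0566 with it, and without the block every edgeR adjusted p was 0.9997 or higher. For none of the 7 did the groups stand apart, which they did for 8.07% of all genes tested. Without the block the 95% intervals of the log2 fold changes ran from -1.10 at the lowest to 0.95 at the highest. With it they were narrower and ran from -0.77, for MMP9, to 0.25, for MMP15.

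Without the block the narrowest intervals belonged to the inhibitors TIMP2 and TIMP3. TIMP3 had 115, 131 and 126 CPM in DMSO and 119, 124 and 110 CPM in Nutlin-3a. The log2 fold change was -0.08 (SE 0.10, 95% interval -0.31 to 0.15). TIMP2 had 153, 161 and 173 CPM in DMSO and 156, 169 and 164 CPM in Nutlin-3a, a log2 fold change of 0.01 (SE 0.10, 95% interval -0.22 to 0.23). The treated TIMP2 libraries lay within the range of the controls, and those of TIMP3 did so except replicate 3, which was the lowest of the 6.

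TIMP1 varied far more between replicate numbers than between treatments. It had 1313, 1776 and 718 CPM in DMSO and 1222, 1989 and 789 CPM in Nutlin-3a, and replicate 3 was lowest and replicate 2 highest under both. The log2 fold change was 0.07 (SE 0.38, 95% interval -0.81 to 0.95), and with the replicate block the interval was -0.10 to 0.23.

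MMP14 had 335, 398 and 434 CPM in DMSO and 358, 428 and 464 CPM in Nutlin-3a. Each treated library was above the DMSO library of the same number, with a log2 fold change of 0.10 (SE 0.14, 95% interval -0.22 to 0.42). With the replicate block the interval was -0.05 to 0.25, and MMP14 was not called. MMP15 had 9.24, 5.46 and 8.11 CPM in DMSO and 8.01, 5.27 and 8.82 CPM in Nutlin-3a, with replicate 2 lowest in both and a log2 fold change of -0.05 (SE 0.27, 95% interval -0.66 to 0.56).

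MMP2 had 4.26, 5.03 and 8.63 CPM in DMSO and 4.00, 4.46 and 8.09 CPM in Nutlin-3a, with a log2 fold change of -0.12 (SE 0.36, 95% interval -0.93 to 0.70). MMP9 had 3.04, 4.11 and 5.48 CPM in DMSO and 2.65, 2.54 and 4.54 CPM in Nutlin-3a, a log2 fold change of -0.38 (SE 0.32, 95% interval -1.10 to 0.35). Both gelatinases were lower in each treated library than in the DMSO library of the same number, and replicate 3 was the highest of both in either treatment. With the replicate block the 95% intervals were -0.43 to 0.20 for MMP2 and -0.77 to 0.01 for MMP9, and neither was called. MMP1 had 0, 2 and 1 reads in DMSO and 1, 8 and 0 in Nutlin-3a, and MMP10 had 4, 5 and 1 against 0, 7 and 0, both too low to test. The 9 genes of the cluster on chromosome 11 had 1 to 28 reads together in a library of this table.

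**Figure D5:**
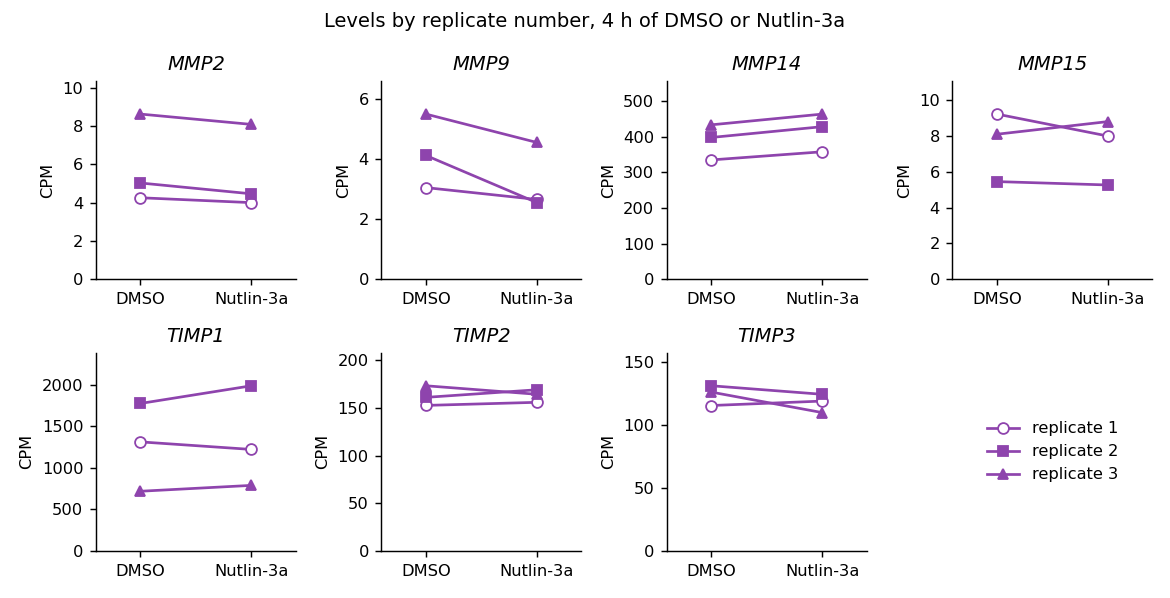
CPM of the 7 tested members in DMSO and Nutlin-3a, a panel per gene with an axis from 0, and lines joining libraries of the same replicate number. Most lines are nearly flat, and for TIMP1 replicate 2 (1776 and 1989 CPM) and replicate 3 (718 and 789 CPM) lie farther apart than any treated library from its own control.

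No difference in the balance of enzymes and inhibitors passed a test either, in a design too small for these ratios to pass. Enzyme reads per inhibitor read were 0.223, 0.200 and 0.448 in DMSO and 0.249, 0.194 and 0.457 in Nutlin-3a, a log2 difference of 0.05 (exact permutation p = 0.9, two-sided). The high values of replicate 3 went with its low TIMP1. MMP14 reads per TIMP2 read were 2.20, 2.47 and 2.51 in DMSO and 2.30, 2.54 and 2.83 in Nutlin-3a, a log2 difference of 0.09 (exact permutation p = 0.4, two-sided). The smallest p that 3 against 3 libraries can give is 0.1. Permuted within pairs of the same replicate number, a test added after the values were seen, the enzymes per inhibitor gave an exact p of 0.75 with 2 of 3 pairs higher in Nutlin-3a. MMP14 per TIMP2 was higher in all 3 pairs and gave 0.25, the smallest p that this exact test of 3 pairs can give. Per kilobase of exon the order in DMSO was TIMP1 (1650 CPM per kilobase), MMP14 (105), TIMP2 (44.4) and TIMP3 (27.0), with MMP15, MMP9 and MMP2 next and overlapping at 1.87, 1.80 and 1.70. The same 4 genes led in the same order in Nutlin-3a.

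Of the 52 further pathway genes 30 were tested in this table and none was called by edgeR, DESeq2 or the exact test, with an unadjusted p under 0.05 in edgeR for 2 of them, ADAMTS1 and PLAUR. With the replicate block ADAMTS1, a secreted protease that cuts proteoglycans, was called lower, from 2.93 ± 0.748 CPM in DMSO to 1.39 ± 0.202 CPM in Nutlin-3a (SD, n = 3 each; log2 fold change -1.06, SE 0.22, edgeR adjusted p = 0.0295). Without the block its log2 fold change was -1.07 with an adjusted p of 0.502. No marker of epithelial, fibroblast or leukocyte cells was called. The summed fibroblast markers were 24.8 to 120 CPM in DMSO and 24.9 to 148 CPM in Nutlin-3a, set mainly by DCN (decorin). The epithelial markers summed to 3338 to 5487 and 3576 to 5881 CPM, set mainly by KRT5, and the leukocyte markers to 2.60 to 6.18 and 2.16 to 8.36 CPM.

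The tables were counted on different annotations and normalized separately, so levels in parental cells can only be set side by side. TIMP3 had 336 ± 26.3 CPM in MCF10A (SD, n = 2) and 124 ± 7.99 CPM in DMSO (SD, n = 3), MMP9 0.180 ± 0.0673 and 4.21 ± 1.22 CPM, and TIMP1 602 ± 100 and 1269 ± 530 CPM. No test was made between them.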

How the data were processed

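Poly(A) RNA from MCF10A and G12V cells and from MCF10A cells given DMSO or Nutlin-3a was sequenced. Reads were aligned to hg19 with TopHat and counted with HTSeq, and the authors deposited the raw counts per gene in 2 tables on different annotations, without normalization. The counting mode for overlapping genes and the strand setting are not given in the sources used here. The study names its libraries biological replicas, and nothing says further how they were separated, so p-values measure the spread between these libraries. No replicate libraries were identical within sampling noise.

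Separate fits of both comparisons were made in edgeR 4.0.16 (R 4.3.3, limma 3.58.1), with filterByExpr at its defaults, TMM, the quasi-likelihood F-test and Benjamini-Hochberg adjustment over all genes tested. A prior count of 0.125 entered the log2 fold changes, whose SE is their size divided by the root of F. CPM use TMM-scaled library sizes. Exon lengths are those of the canonical transcripts of GENCODE 44 on GRCh37. A fold against a gene listed at 0 is a bound set by 3 counts in each library, and covers counting error only, since reads are not independent molecules. Python 3.11.15, pandas 2.3.3, numpy 2.4.6, scipy 1.17.1 and matplotlib 3.10.9 were used for the rest. The fits were tested on simulated data.

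To check the pairing, each library's deviation from its group mean was correlated across genes. Nutlin-3a and DMSO libraries with equal numbers gave 0.62, 0.60 and 0.64 and those with unequal numbers -0.47 to -0.19, so the numbers pair them. As alternatives, the fits were repeated with edgeR's exact test, DESeq2 1.42.0, RLE factors, library totals alone, no filter, a stricter filter (over 1 CPM in 2 or more libraries), the replicate block, and omission of each library in turn.

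The members and the gene lists were chosen with earlier results of these data known. Named are all members, every gene of the pathway lists that was called, the cluster on chromosome 11, genes overlapping a member, and the genes that check the labels. Pathway genes named although not called (RECK, TIMP4, FURIN, ADAM17 and others not called) and the markers were chosen after their values were seen.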

Additional observations from a re-analysis of the deposited data

How the results depend on the processing

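In G12V against MCF10A, 1575 genes were called in the main setting, 2526 by edgeR's exact test and 0 to 2129 without single libraries, with 0 only without MCF10A replicate 1, where the lone parental library is assumed to vary like the G12V ones. Members called were 3, and 0 to 5 without single libraries. With the replicate block 4158 genes and 6 members were called, the 3 further members being MMP2, TIMP1 and TIMP2 (edgeR adjusted p = 0.00275, 0.00388 and 6.73e-05). These numbers are shared by 2 pairs only, whose deviations correlated at 0.49, so the pairing is not established here. No setting turned the direction of a tested member in this comparison. The enzymes' reads per inhibitor read differed by -1.54 on the log2 scale and by -1.84 per kilobase of exon.

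In Nutlin-3a against DMSO, 23 genes were called, 91 by DESeq2, 83 by the exact test, 99 with no filter, 165 with the replicate block and 7 to 11 without single libraries. Of the calls 91.3% were higher in the main setting, 71.7% with no filter, 68.1% by DESeq2, 77.1% by the exact test and 57.6% with the block. No member was called in any setting, and the block changed no member's call. Permuting the ratios within pairs, chosen after seeing the data, left their log2 differences at 0.05 and 0.09. Without single libraries the log2 fold change ran from -0.50 to 0.25 for MMP2, -0.24 to 0.14 for MMP15, -0.34 to 0.40 for TIMP1 and -0.036 to 0.057 for TIMP2, which was also -0.029 with library totals alone and -0.00089 with no filter. The enzymes' reads per inhibitor read ran from -0.30 to 0.41. The causes of these changes were not tested, and 2 or 3 libraries a group limit every call.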
